A study of Mus musculus with 12 samples.

Results

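The libraries examined are the 4 that carry a Th1 label among the 12 of a mouse RNA sequencing series, and the comparison sets the pair labelled day 3.5 against the pair labelled day 2.5 within each genotype. CD4+ T cells came from lymph nodes and spleen of C57BL/6 wild-type mice (WT) or of C57BL/6 mice with the NFATc1/ΔS allele, whose NFATc1 cannot be joined to the small protein SUMO. Per the labels, the cells were stimulated for 3 days with soluble anti-CD3 and anti-CD28 over plate-bound anti-hamster IgG, and the Th1 cultures held IL-12 and an antibody to IL-4 in RPMI medium with fetal calf serum. RNA was taken at day 2.5 and at day 3.5. The 4 groups, Th1 WT day 2.5, Th1 WT day 3.5, Th1 NFATc1/ΔS day 2.5 and Th1 NFATc1/ΔS day 3.5, held 1 library each, so the WT and NFATc1/ΔS pairs are the only repeats of the day comparison. The labels do not say whether the libraries came from separate animals or cultures, and p-values then measure only the spread among these libraries. Th2 cultures (IL-4, antibody to interferon-γ, RPMI) and Th17 cultures (TGFβ, IL-6, both antibodies, IMDM medium and less anti-CD3) gave the other 8 libraries. The day and genotype labels of the Th1 libraries are in doubt for the reasons given below, so every day or genotype named for Th1 is that of the library's label.

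T helper 1 cells arise when a T cell receptor signal meets IL-12, which acts through STAT4 and T-bet (Tbx21) to open the interferon-γ gene. They secrete interferon-γ and carry part of the cytotoxic program of killer lymphocytes, such as granzyme B and perforin. Once stimulated, naive T cells grow, make ribosomes, copy their DNA and turn to glycolysis, and these programs rise and fall over the first days of a culture. NFATc1 is a transcription factor that calcium and calcineurin bring to the nucleus after receptor signalling.

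The Th1 libraries held between 14502711 and 16861345 reads on genes, of which 79.9 to 81.4% mapped uniquely, 2.50 to 4.34% lay in introns and 2.40 to 3.01% came from mitochondrial genes. Levels are CPM, read counts relative to the library's total after TMM normalisation between libraries, and pairs of values give day 2.5 first and day 3.5 second. Fold changes are day 3.5 over day 2.5 on the log2 scale. Since the RNA came from whole cultures, fewer cells of a type and less RNA per cell cannot be told apart in any result below.

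The Th1 label itself went with the marker levels. Ifng, which encodes interferon-γ (GRCm38 chr10:118441046-118445892), stood at 53.6 and 46.7 CPM in WT, and 186.4 and 38.6 CPM in NFATc1/ΔS, against 1.3 to 4.4 CPM in the other 8 libraries. Tbx21, which encodes T-bet, stood at 45 and 34.5 CPM in WT, and 66.6 and 37.9 CPM in NFATc1/ΔS, against 2.1 to 4.2 CPM. All 4 Th1 libraries lay above all Th2 and Th17 libraries for both genes. Il12rb2, the signalling chain of the IL-12 receptor, was likewise at 440.2 and 334.9 CPM in WT, and 253.7 and 390.7 CPM in NFATc1/ΔS, against 31.4 to 175 CPM.

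The day labels did not go with the other cultures. Over the Th2 and Th17 libraries 13025 genes were tested for day with edgeR. Of these, 4864 (37.3%) had an adjusted p under 0.05 and moved in the same direction from day 2.5 to day 3.5 in all 4 pairs. Among the 2468 of these that were higher at day 3.5, 38.3% were higher in the WT Th1 pair and 22.8% in the NFATc1/ΔS Th1 pair, with median log2 differences of -0.07 and -0.47 against 0.46 in Th2 and Th17. Among the 2396 that were lower, 39.8% and 22.9% were lower in the Th1 pairs, with medians of 0.09 and 0.42 against -0.43. In both Th1 pairs most of these genes thus moved against the direction of the other cultures. S100a6, a calcium-binding protein, is an example: it was at 12.3 and 40.8 CPM in Th2 WT and at 10 and 32.7 CPM in Th2 NFATc1/ΔS, but at 21.4 and 2.6 CPM in WT, and 11.7 and 3.3 CPM in NFATc1/ΔS in Th1.

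The genotype labels were checked with 43 genes (0.33% of 13025) that passed edgeR's genotype test over Th2 and Th17 (adjusted p under 0.05). Each had a fitted difference of over 1 log2 and the same direction in all 4 pairs of those cultures. The Th1 library labelled WT day 2.5 lay nearer the WT level for 28 of the 43, and the library labelled WT day 3.5 for 14. The libraries labelled NFATc1/ΔS lay nearer the WT level for 15 (day 2.5) and 14 (day 3.5). By this count the library labelled WT day 3.5 was no nearer WT than the NFATc1/ΔS libraries were. Some of the 43, such as BC117090 and Stfa2 (0 to 0.1 CPM), were near 0 in all 4 Th1 libraries. For such genes nearness to a genotype checks no label. Gdpd3, a lysophospholipase D gene on chromosome 7 at chr7:126766334-126775649, was at 26.4 to 91.3 CPM in the WT and 0.1 to 1 CPM in the NFATc1/ΔS libraries of Th2 and Th17, and at 19.2 and 0.8 CPM in WT, and 0.2 and 1.3 CPM in NFATc1/ΔS in Th1. Apobr, the apolipoprotein B receptor gene, was at 0.3 to 1.4 CPM in WT and 3.7 to 11.3 CPM in NFATc1/ΔS outside Th1. In Th1 it was at 1.2 and 3.4 CPM in WT, and 7.7 and 3.1 CPM in NFATc1/ΔS. Apobr lies close to Gdpd3, at chr7:126584942-126589112, so these genes are not separate checks of the genotype label. Nfatc1 itself, which carries the change, was at 270.7 and 183.3 CPM in WT, and 237.6 and 179.7 CPM in NFATc1/ΔS. Since a change of SUMO acceptor sites need not alter the RNA level, Nfatc1 checks no label.

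The libraries labelled day 3.5 were also closer to each other than any other genotype pair. They differed by over 1 log2 in 1.74% of 12591 genes, against 2.77 to 3.16% for the Th2 and Th17 genotype pairs and 16.1% for the Th1 libraries labelled day 2.5. Their log2 CPM correlated across genes with r = 0.991, and those labelled day 2.5 with r = 0.954. The library labelled WT day 2.5 correlated better with the 4 Th17 libraries (r = 0.966 to 0.980) than with the other Th1 libraries (r = 0.942 to 0.954). These correlations are across genes of the same organism and assay, and genes are not independent replicates. Day 3.5 against day 2.5 gave differences of over 1 log2 in 10.5% of genes in the WT pair (5.23% higher and 5.31% lower) and 22.0% in the NFATc1/ΔS pair (13.8% higher and 8.24% lower), against 5.54 to 6.73% in the 4 pairs of Th2 and Th17.

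**Figure D1:**
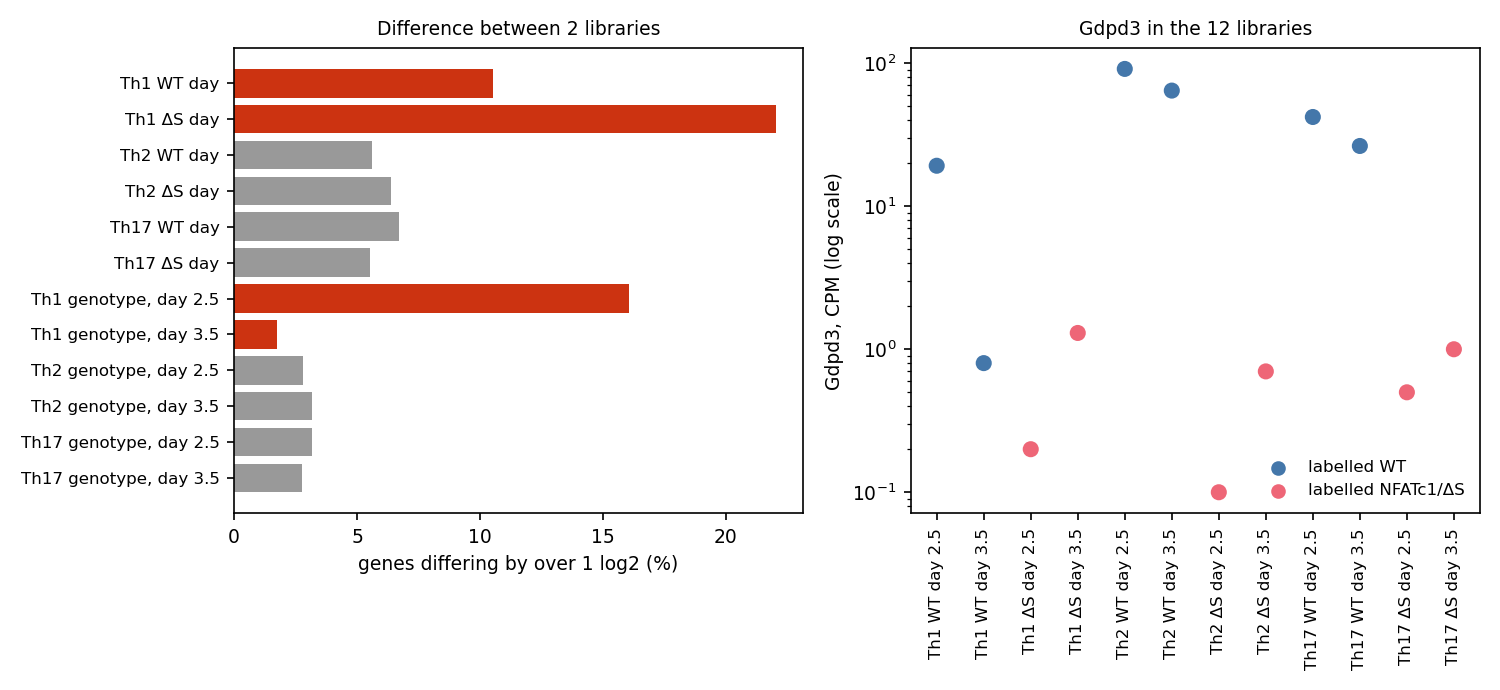
Left, the share of 12591 genes that differ by over 1 log2 between 2 libraries, for the 6 day pairs and the 6 genotype pairs, with Th1 pairs in red. Right, Gdpd3 in CPM on a log scale in each of the 12 libraries, coloured by genotype label: the library labelled Th1 WT day 3.5 sits at 0.8 CPM among the NFATc1/ΔS libraries. The Th1 day pairs reach 10.5 and 22.0%, and the Th1 genotype pairs 16.1 and 1.74%.

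Over both genotype pairs, 261 of 12591 genes passed the test (2.07%), 145 higher (1.15%) and 116 lower (0.921%) in the libraries labelled day 3.5, by edgeR's quasi-likelihood test with genotype as a block and Benjamini-Hochberg adjustment. All 261 moved in the same direction in WT and NFATc1/ΔS. With 1 residual degree of freedom the test finds only changes that are large and alike in both pairs, and 1402 genes had an unadjusted p under 0.05. Many of the 261 had mostly intron reads or few uniquely mapped reads. Over 50% of the reads lay in introns for 66 genes, and 63 of the others had under 50% uniquely mapped reads. The called genes of neither kind were 60 higher and 72 lower. Of all tested genes with mostly intron reads 5.89% were called higher and 2.04% lower. Of those with few unique reads it was 2.25% and 1.69%, and of the genes of neither kind 0.591% and 0.709%. A refit without all genes of those kinds called 62, all among the 261. Spread and adjustment were estimated anew there over 10157 genes, so it also ended calls of genes of neither kind.

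The clearest case is Kpna2, which encodes importin-α1, an adaptor that carries proteins into the nucleus. Its processed copy Gm10184 on chromosome 17 is 99.9% identical to it, with 2 differing bases in 1968 aligned bases. A stretch of the coding strand of each that holds 1 of them is shown because reads that do not cover such a base cannot be assigned to either gene. The sequences are 61 bases of the GENCODE transcripts on GRCm38, Kpna2 from exon 7 at chr11:106991228-106991288 on the minus strand and Gm10184 from exon 1 at chr17:89909546-89909606 on the minus strand, and the capital marks the base that differs, C31T counted from the first base shown with the base of Kpna2 first.
Kpna2: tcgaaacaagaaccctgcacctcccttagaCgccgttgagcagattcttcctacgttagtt
Gm10184: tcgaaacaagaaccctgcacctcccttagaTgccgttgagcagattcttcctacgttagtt

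The reads of this pair lay mostly on Kpna2 in the libraries labelled day 2.5 and mostly on the copy in those labelled day 3.5. Kpna2 was at 295.2 and 15.5 CPM in WT, and 507.8 and 12.5 CPM in NFATc1/ΔS, and at 125.5 to 236.6 CPM in the other 8 libraries, a log2 fold change of -4.79 ± 0.38 (SE; edgeR adjusted p = 0.000173). Gm10184 was at 0 and 258.5 CPM in WT, and 6.7 and 239.6 CPM in NFATc1/ΔS. The sum of both was 295.2 and 274 CPM in WT and 514.5 and 252.1 CPM in NFATc1/ΔS. In WT the sum thus changed far less than either gene. Of the reads on Kpna2 8.71% mapped uniquely, so its value is uncertain.

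Reads were split in a like way between other genes and their copies. Among called genes without mostly intron reads, 63 had under 50% unique reads. Of these, 44 had a near-identical gene (at least 90% identity over at least 50% of the shorter transcript). The near-identical gene moved the opposite way for 30 of the 44, and 13 of those 30 were called themselves. These are counts of genes and not of separate pairs. Where both genes of a pair were called, as for Hmga1 with Hmga1b and Tpm3 with Tpm3-rs7, the pair can enter from both sides. Hmga1, a chromatin protein that bends DNA, was at 205.1 and 84.2 CPM in WT, and 268 and 78.8 CPM in NFATc1/ΔS, and its copy Hmga1b at 0.3 and 124.6 CPM in WT, and 0.1 and 117.3 CPM in NFATc1/ΔS. Rps18, a protein of the small ribosomal subunit, was at 1719.4 and 399.8 CPM in WT, and 1309.7 and 412.5 CPM in NFATc1/ΔS, and Gm10260 at 2.8 and 1162.9 CPM in WT, and 1.5 and 977 CPM in NFATc1/ΔS. Both pairs kept nearly the same sum in WT, 205.4 and 208.8 CPM for Hmga1 with Hmga1b and 1722.2 and 1562.7 CPM for Rps18 with Gm10260. The latter sum leaves out Gm11361, a further called gene near-identical to Rps18. It was at 2.1 and 360.1 CPM in WT, and 0.5 and 351.8 CPM in NFATc1/ΔS. Tpm3, a tropomyosin of the actin cytoskeleton, was at 673.4 and 193 CPM in WT, and 990.1 and 228.8 CPM in NFATc1/ΔS, and Tpm3-rs7 at 4.6 and 502.3 CPM in WT, and 5 and 502.9 CPM in NFATc1/ΔS. Ahcy, which breaks down S-adenosylhomocysteine, was at 338.9 and 14.2 CPM in WT, and 301.2 and 10.5 CPM in NFATc1/ΔS, and Gm4737 at 228.4 and 457.9 CPM in WT, and 201.5 and 415.1 CPM in NFATc1/ΔS. Eno1b, a copy of the glycolytic enolase gene Eno1, was at 8.5 and 2515.8 CPM in WT, and 7.8 and 2457.3 CPM in NFATc1/ΔS, and Eno1 at 3849.6 and 2530.5 CPM in WT, and 3463.3 and 2275.4 CPM in NFATc1/ΔS. The sums were not kept throughout. Hmga1 with Hmga1b came to 268.1 and 196.1 CPM in NFATc1/ΔS, Eno1 with Eno1b to 3858.1 and 5046.3 CPM in WT, and Rpl29, a protein of the large ribosomal subunit, with its copy Gm3550 to 813.0 and 243.3 CPM in WT. Hmga1b, Gm10260, Tpm3-rs7, Gm4737 and Eno1b were each higher in both libraries labelled day 3.5 than in either labelled day 2.5.

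**Figure D2:**
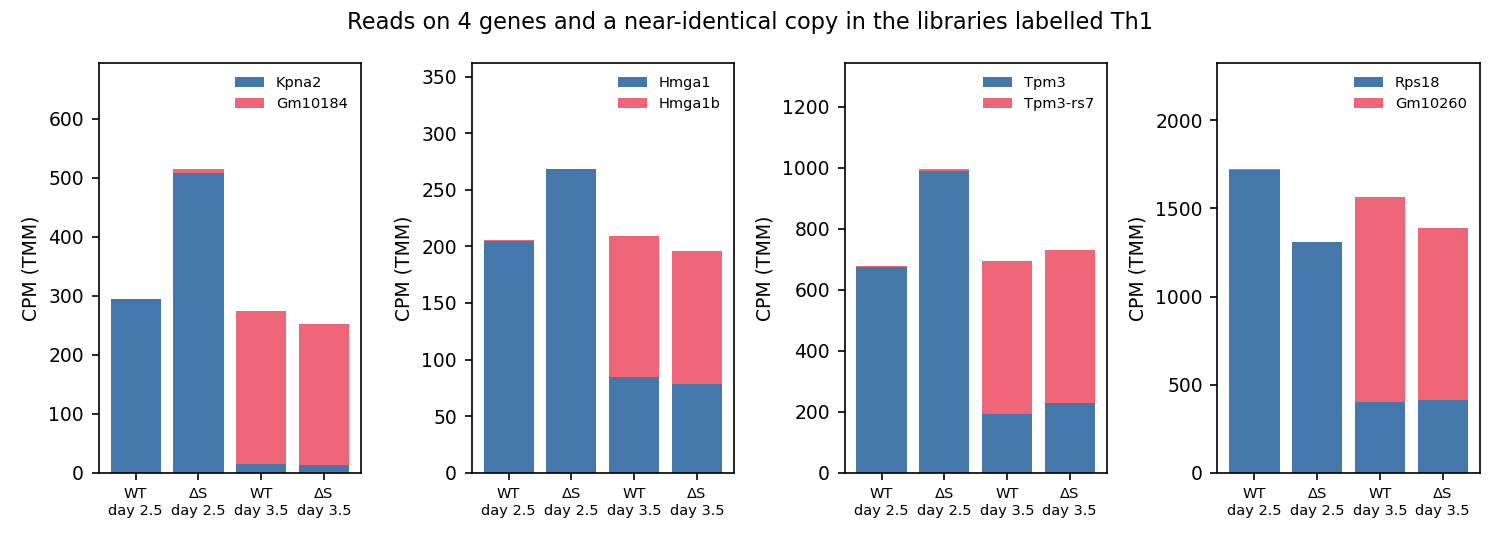
Stacked bars of the CPM on 4 genes (blue) and their near-identical copies (red) in the 4 libraries labelled Th1. The copies hold at most 6.7 CPM in the libraries labelled day 2.5 and 117.3 CPM or more in those labelled day 3.5.

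Genes with mostly intron reads showed an equally sharp change. Cfap77, a gene of motile cilia on chromosome 2, was at 1.7 and 612.4 CPM in WT, and 1 and 599.8 CPM in NFATc1/ΔS, and 99.7% of its reads were intronic. Wdr66 was at 0.2 and 140.2 CPM in WT, and 0.3 and 138.1 CPM in NFATc1/ΔS, Sdk1 at 0.7 and 120.9 CPM in WT, and 0.5 and 152.4 CPM in NFATc1/ΔS and Skint6 at 0.7 and 100.2 CPM in WT, and 1 and 96.7 CPM in NFATc1/ΔS. All 4 were near 1 CPM or below at day 2.5 and above 90 CPM at day 3.5. Cfap77 was at 0.4 to 2.1 CPM in the Th2 and Th17 libraries. Only 0.564% of the reads of Wdr66 and 1.44% of those of Sdk1 mapped uniquely, so their values are uncertain. For Cfap77 and Skint6 99.9% did. Of the 66 called intron-read genes 49 were higher and 17 lower at day 3.5, 5.89% and 2.04% of the genes of that kind, against 0.591% and 0.709% of the genes of neither kind.

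A set of genes with reads of neither kind also separated the libraries labelled day 3.5 from all others. Gbp2b, an interferon-inducible guanylate-binding protein (chromosome 3), was at 0 and 82.4 CPM in WT, and 0.3 and 106.1 CPM in NFATc1/ΔS, and at 0 to 0.2 CPM in Th2 and Th17. Hopx, a homeodomain protein without DNA binding that effector T cells express, was at 71.4 and 2.3 CPM in WT, and 42.1 and 2 CPM in NFATc1/ΔS, and at 14.3 to 22.4 CPM in the other cultures, a log2 fold change of -4.66 ± 0.35 (SE; edgeR adjusted p = 9.17e-05). Ly6a (Sca-1), a surface protein of activated T cells, was at 908.1 and 61.2 CPM in WT, and 638.2 and 107.7 CPM in NFATc1/ΔS, and at 321.4 to 815 CPM elsewhere. Gbp2b was thus present at the labelled day 3.5 of Th1 and nearly absent from the other 10 libraries, and Hopx and Ly6a were lower there than in all of those, though Ly6a still reached at least 61.2 CPM. Further examples were Ly6c1, a surface protein of the same family as Ly6a, at 86.8 and 3 CPM in WT, and 37.3 and 3.1 CPM in NFATc1/ΔS, Rab6b, a small GTPase of Golgi traffic, at 26.1 and 0.1 CPM in WT, and 14.2 and 0.3 CPM in NFATc1/ΔS, and H2-Q1, a class Ib histocompatibility gene, at 0.6 and 24.7 CPM in WT, and 0.1 and 28.6 CPM in NFATc1/ΔS.

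Counted over all 12591 genes, both Th1 libraries labelled day 3.5 lay over 8-fold above all other 10 libraries in 64 genes and over 8-fold below them in 18. No other pair of libraries of a culture and day did so for any gene. Of the 64, 30 had mostly intron reads, 21 of the others had under 50% unique reads and 13 were of neither kind. Among the genes not called over both pairs the same kinds held 766, 1539 and 10025 genes. The 64 lay on 19 chromosomes. The labels give C57BL/6 for all 12 libraries. These genes split the Th1 libraries exactly as the day label does, so the day, the strain background and any other difference between those library pairs cannot be told apart.

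**Figure D3:**
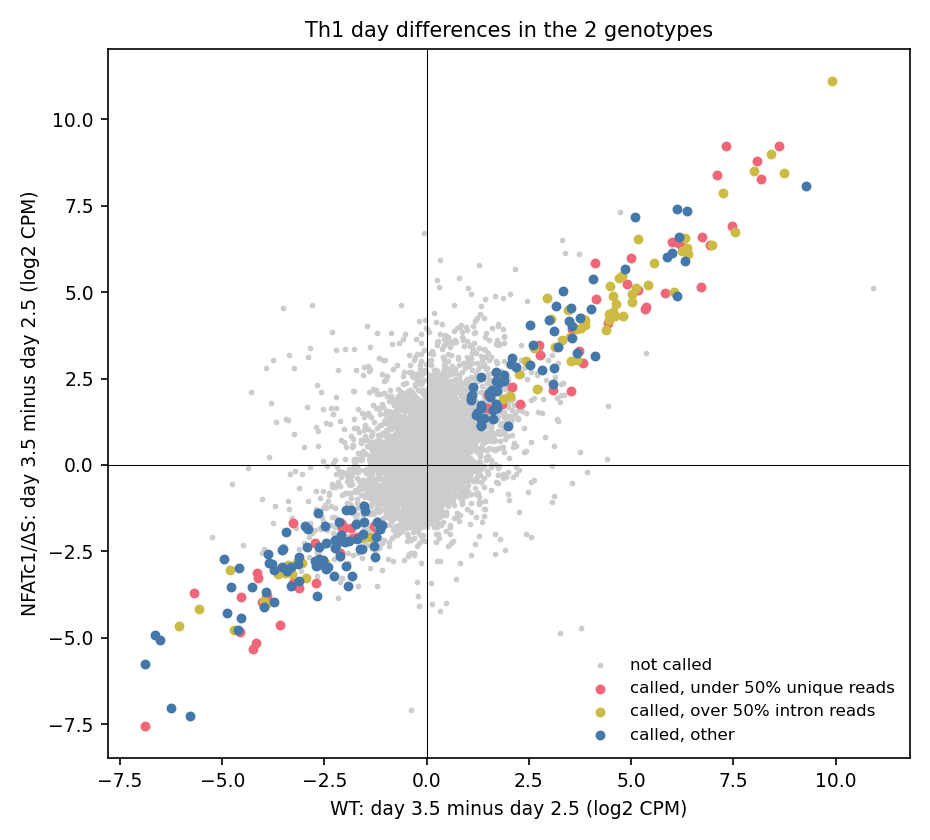
Each point is 1 of 12591 genes, with the log2 CPM difference of day 3.5 minus day 2.5 in WT on the x axis and in NFATc1/ΔS on the y axis. The 261 called genes, coloured by the kind of reads they hold, lie in the upper right and lower left quadrants only, and the uncalled genes (grey) spread further along the NFATc1/ΔS axis.

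Among functional groups, several cytotoxic genes fell over both genotype pairs. Of 17 tested granzyme and cytotoxic genes 5 were lower and none higher at day 3.5, against 0.921% of all genes lower and 1.15% higher. The list's median log2 fold change was -1.55, against -0.0021 over all genes. Gzmb, granzyme B (chromosome 14), the serine protease that killer lymphocytes deliver into target cells, was at 1962.6 and 686.2 CPM in WT, and 1767.7 and 699.5 CPM in NFATc1/ΔS. Prf1, perforin, which forms the pore for granzymes, was at 83.6 and 23.2 CPM in WT, and 67.9 and 27.3 CPM in NFATc1/ΔS. Both genes were lower in both day 3.5 libraries than in either day 2.5 library, with log2 fold changes of -1.42 ± 0.27 (SE; edgeR adjusted p = 0.03) and -1.57 ± 0.29 (SE; edgeR adjusted p = 0.0252). All 4 Th1 libraries were above the Th2 and Th17 libraries for Gzmb, which ranged over 105.3 to 575 CPM there.

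Receptors and granule proteins of the same program moved with them. Nkg7, a membrane protein of cytotoxic granules, was at 151.5 and 26.7 CPM in WT, and 83.4 and 24.7 CPM in NFATc1/ΔS, a log2 fold change of -2.12 ± 0.30 (SE; edgeR adjusted p = 0.00617). Klrd1, the CD94 chain of an NK receptor, was at 7.7 and 1.1 CPM in WT, and 9.6 and 1.2 CPM in NFATc1/ΔS, and Klrc1, its NKG2A partner, at 15.2 and 2.3 CPM in WT, and 14 and 2 CPM in NFATc1/ΔS. Both fell, by 2.90 and 2.73 on the log2 scale (edgeR adjusted p = 0.014 and 0.00688). For Klrd1 the libraries labelled day 3.5 were near 1 CPM, where few reads carry the value. Gzma was at 10.5 and 2.8 CPM in WT, and 8.2 and 3.5 CPM in NFATc1/ΔS and Gzmc at 26.9 and 12.5 CPM in WT, and 52.6 and 6.3 CPM in NFATc1/ΔS, but neither passed the test over both pairs (edgeR adjusted p = 0.148 and 0.176).

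Of 24 tested Th1 genes 5 were lower, against 0.921% of all genes, and none higher, with a median of -0.60. Of the 5, 2 were Nkg7 and Klrc1 again. The others were the chemokines Ccl3 and Ccl4, ligands of inflammatory chemokine receptors, and Cxcr3, the receptor that guides Th1 cells to interferon-induced chemokines. Ccl3 was at 7.8 and 2 CPM in WT, and 24.8 and 2.1 CPM in NFATc1/ΔS, Ccl4 at 23.2 and 7 CPM in WT, and 26.3 and 8 CPM in NFATc1/ΔS and Cxcr3 at 6.7 and 1.7 CPM in WT, and 12.1 and 2.5 CPM in NFATc1/ΔS. The 3 genes were lower in both libraries labelled day 3.5 than in either labelled day 2.5, with log2 fold changes of -2.79, -1.72 and -2.10 (edgeR adjusted p = 0.0213, 0.0242 and 0.0452). The lineage-defining genes did not pass over both pairs: Ifng had a log2 fold change of -1.23 ± 0.58 (SE; edgeR adjusted p = 0.531) and Tbx21 of -0.59 ± 0.28 (SE; edgeR adjusted p = 0.478), and Stat4, the transducer of IL-12, was at 100.7 and 121.7 CPM in WT, and 141.6 and 107.7 CPM in NFATc1/ΔS.

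The summed CPM of 10 CD8 T and NK cell markers moved with the cytotoxic genes, at 77.9 and 40.5 in WT and 71.3 and 40.4 in NFATc1/ΔS. None of the 10 was at 0 in all Th1 libraries, 6 were tested and 1 (Klrd1, also on the cytotoxic list) was lower. Their part in the fall of Gzmb and Prf1 was not tested. Leaving out the genes with mostly shared or intron reads ended the calls of Gzmb, Prf1, Ccl3, Ccl4 and Cxcr3, with edgeR adjusted p between 0.0695 and 0.106, and those of Nkg7, Klrc1 and Klrd1 held. The fold changes hardly moved, with -1.41 for Gzmb, -1.56 for Prf1 and -2.78 for Ccl3. Leaving out either library labelled day 3.5, which also needs the block dropped, ended all 8 calls, with fold changes of -1.70 and -1.47 left for Prf1, and dropping the block alone ended those of Nkg7, Prf1, Ccl3 and Cxcr3.

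**Figure D4:**
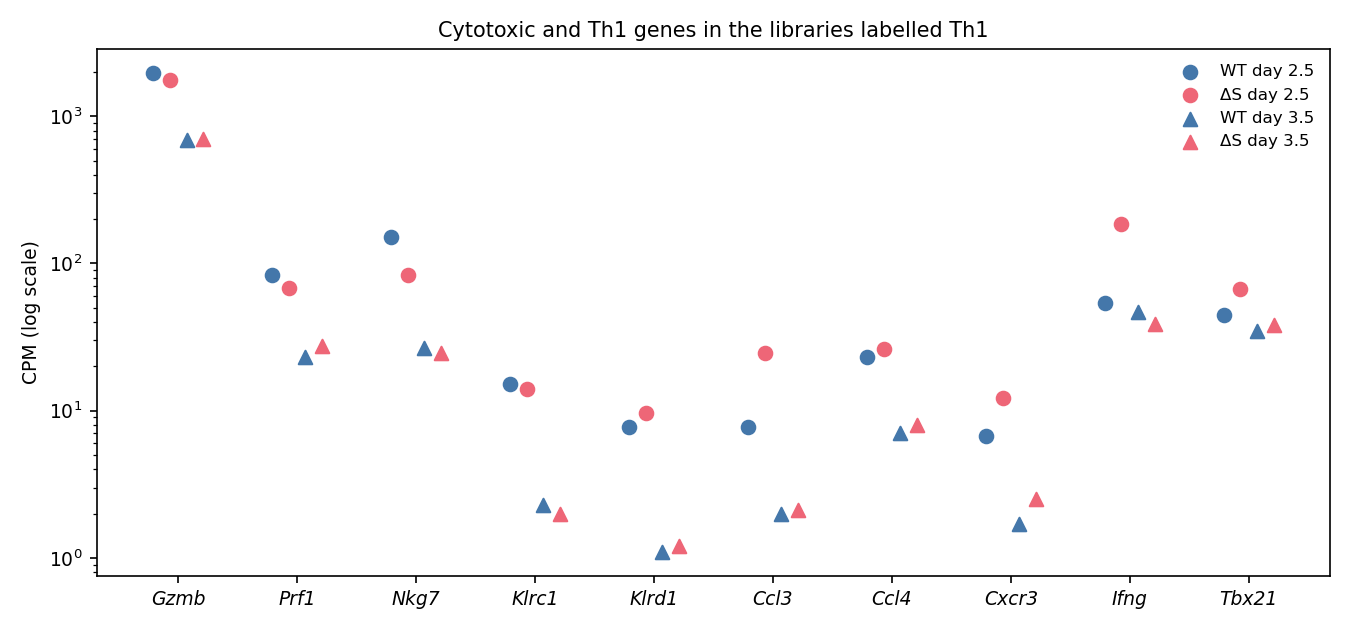
CPM on a log scale of 8 called cytotoxic and Th1 genes, with Ifng and Tbx21, in the 4 libraries labelled Th1. Circles are day 2.5 and triangles day 3.5. For the 8 called genes both triangles lie below both circles, and for Ifng the NFATc1/ΔS library labelled day 2.5 stands alone at 186.4 CPM.

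The other groups added few calls over both pairs. Of 18 Treg and suppressive genes, 2 were higher: Foxp3, the master regulator of regulatory T cells, at 4.1 and 20.4 CPM in WT, and 6 and 20.6 CPM in NFATc1/ΔS, and Ikzf2 (Helios), at 11.9 and 33.3 CPM in WT, and 10.8 and 34.3 CPM in NFATc1/ΔS. Of their reads 22.1% (Foxp3) and 13% (Ikzf2) mapped uniquely, transcripts of Foxp3 share sequence with Flicr, a noncoding RNA of the same locus, and neither gene passed with unique reads (edgeR adjusted p = 0.185 and 0.256), where the log2 fold changes were 1.76 and 1.51 against 2.06 and 1.58. Both values are uncertain because few of the reads are unique. Of 33 glycolysis and hypoxia genes, 2 were higher: Eno1b, described above, and Car12, a carbonic anhydrase that hypoxia induces, at 39.9 and 101.2 CPM in WT, and 18.7 and 110.4 CPM in NFATc1/ΔS. Stc2, a secreted glycoprotein of the ATF4 stress response, was at 30.7 and 65.3 CPM in WT, and 16.8 and 65.9 CPM in NFATc1/ΔS and rose by 1.54 (edgeR adjusted p = 0.0457). Without the block neither Car12 nor Stc2 passed. The 32 DNA replication, 30 G2 and mitosis and 30 ribosome biogenesis genes had medians of -0.36, -0.13 and -0.75. None passed, which with 2.07% of all genes called is near the background for lists of this size.

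In the WT pair alone, with the spread taken from Th2 and Th17, 1806 of 13934 genes passed (13%), 822 higher (5.9%) and 984 lower (7.06%). The biological coefficient of variation was 7.25% in this fit and 27.6% in the fit to the Th1 libraries over both pairs, so the calls within and between the genotypes rest on the smaller spread. Many effector genes were lower. The count of any list in this pair has to be read against the 5.9% of all genes higher and 7.06% lower. Of 17 cytotoxic genes 11 were lower and 1 higher (median -1.32), of 24 Th1 genes 13 were lower and 2 higher (median -0.44), and of 19 chemokines and chemokine receptors 8 were lower and 1 higher. Gzmb had a log2 fold change of -1.51 ± 0.15 (SE; edgeR adjusted p = 9.35e-06) and Prf1 of -1.85 ± 0.15 (SE; edgeR adjusted p = 1.73e-06). Ifng did not pass in this pair, with -0.20 ± 0.16 (SE; edgeR adjusted p = 0.489).

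In the WT pair 10 of 17 S100, galectin and vimentin genes were lower and none was higher (median -0.57). These are cytoskeletal and calcium-binding proteins that effector and memory T cells carry at high levels. Lgals3, galectin-3, was at 62.4 and 20.5 CPM in WT, and 16.1 and 25.2 CPM in NFATc1/ΔS, and S100a10, which anchors annexin A2, at 320.2 and 167.8 CPM in WT, and 182.4 and 184.7 CPM in NFATc1/ΔS. Both were highest in the library labelled WT day 2.5, and the other 3 libraries lay close together, with WT log2 fold changes of -1.60 ± 0.15 (SE; edgeR adjusted p = 5.39e-06) and -0.93 ± 0.12 (SE; edgeR adjusted p = 0.000141). Co-inhibitory receptors were lower in 5 of 13 and higher in none. Lag3, which binds class II molecules and restrains T cells, was at 795.9 and 448.8 CPM in WT, and 265.6 and 479.1 CPM in NFATc1/ΔS, and it fell in WT (-0.82, edgeR adjusted p = 0.000614) and rose in NFATc1/ΔS (0.83, edgeR adjusted p = 0.000167).

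Few growth genes passed in the WT pair, where 5.9% of all genes were higher and 7.06% lower. None of 32 DNA replication genes and none of 40 nuclear oxidative phosphorylation genes passed (medians 0.11 and 0.02), and 3 of 30 ribosome biogenesis genes were lower. Odc1, the Myc target that begins polyamine synthesis, was one of these, at 431.3 and 232.8 CPM in WT, and 848.5 and 253.5 CPM in NFATc1/ΔS. Of 33 glycolysis and hypoxia genes 8 were higher and 2 lower (median 0.19). Ccr7, the receptor for entry into lymph nodes, was at 395 and 562.8 CPM in WT, and 227.6 and 550.4 CPM in NFATc1/ΔS. It rose by 0.51 in WT and 1.26 in NFATc1/ΔS (edgeR adjusted p = 0.0359 and 2.07e-05).

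Some markers of other cells were also lower in the WT pair, where 7.06% of all genes were lower. The summed CPM of 14 myeloid markers was 20.9 and 4.8 in WT and 8.9 and 5.1 in NFATc1/ΔS, with Adgre1 at 0, and 4 of 7 tested were lower in WT. The sum of 18 B cell and class II genes was 196 and 107.2 in WT and 116.5 and 116.2 in NFATc1/ΔS, with Igkc and Iglc1 at 0, and 5 of 14 tested were lower in WT and 1 higher. Class II genes are not particular to B cells, and the part of these cells in the WT changes was not tested. In WT 2 of 7 tested dendritic cell markers (138.1, 113, 139.3 and 114.9 CPM in sum over the 4 libraries) and 5 of 14 T cell markers (5056.2 to 5891 CPM) were lower and none was higher.

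In the NFATc1/ΔS pair 6248 of 13934 genes passed (44.8%), 2875 higher (20.6%) and 3373 lower (24.2%). Effector groups fell again: 12 of 17 cytotoxic genes were lower and 1 higher (median -1.35), 15 of 24 Th1 genes lower and 5 higher (-0.62), and 11 of 19 chemokines and receptors lower and 3 higher (-1.15). With 44.8% of all genes called, a list's count has to be read against that share.

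Most tested genes for growth and DNA replication fell. Of 30 ribosome biogenesis genes 26 were lower and none higher (median -1.47), of 32 DNA replication and G1/S genes 31 were lower and none higher (-0.86), and of 20 heat shock genes 13 were lower and 2 higher (-0.73). Nolc1, a nucleolar chaperone of ribosome assembly, was at 76 and 66.8 CPM in WT, and 298 and 74.9 CPM in NFATc1/ΔS, and Nop58, a core protein of box C/D small nucleolar RNPs, at 98.9 and 92.5 CPM in WT, and 284.4 and 93 CPM in NFATc1/ΔS. Mcm10, which activates the replicative helicase, was at 43.2 and 46.4 CPM in WT, and 93.6 and 47.2 CPM in NFATc1/ΔS, and Ccne1, the cyclin of S-phase entry, at 50.8 and 45.9 CPM in WT, and 106.5 and 41.2 CPM in NFATc1/ΔS. Hspd1, the mitochondrial chaperonin HSP60, was at 290.3 and 372.1 CPM in WT, and 951.5 and 340.9 CPM in NFATc1/ΔS. In each of these 5 genes the library labelled NFATc1/ΔS day 2.5 was the highest of the 4, and the other 3 lay close together. G2 and mitosis genes were near the background, with 9 of 30 lower against 24.2% of all genes and 1 higher (-0.23), and Mki67, the Ki-67 antigen of cycling cells, was at 685.4 and 643.8 CPM in WT, and 667.6 and 662.9 CPM in NFATc1/ΔS.

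Many mitochondrial genes fell with them. Of 15 mitochondrially encoded genes 10 were lower and none higher (median -0.74), and of 40 nuclear oxidative phosphorylation genes 20 were lower and none higher (-0.34). mt-Cytb, the mitochondrial gene for cytochrome b of complex III, was at 1061.8 and 1052 CPM in WT, and 2668.7 and 1039.7 CPM in NFATc1/ΔS, and Ndufa4, a nuclear gene for a respiratory chain protein, at 66.2 and 73.7 CPM in WT, and 105 and 67.6 CPM in NFATc1/ΔS. Among the Th1 libraries that of NFATc1/ΔS day 2.5 was again the highest for both genes. Over the mitochondrially encoded list it did not stand apart from the other cultures. The summed CPM of NFATc1/ΔS was 30064 and 24130 in Th1, 31481 and 26821 in Th2, and 32488 and 23546 in Th17. The nuclear list had its highest sum of all 12 libraries, 7670.4 CPM, in Th1 NFATc1/ΔS day 2.5.

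Most glycolysis and hypoxia genes went the other way, with 27 of 33 higher and 2 lower (median 0.93). Slc2a3, the high-affinity glucose transporter GLUT3, was at 1627.9 and 2164.7 CPM in WT, and 336.3 and 2151.7 CPM in NFATc1/ΔS. Aldoc, an aldolase of glycolysis, was at 344.7 and 310 CPM in WT, and 40 and 296 CPM in NFATc1/ΔS, and Ero1l, an oxidase of the endoplasmic reticulum that hypoxia induces, at 905.2 and 1211.2 CPM in WT, and 215.9 and 1229.5 CPM in NFATc1/ΔS. The low value of each was that of NFATc1/ΔS day 2.5, and the log2 fold changes were 2.66 ± 0.15 (SE; edgeR adjusted p = 2.36e-08), 2.87 ± 0.14 (SE; edgeR adjusted p = 2.99e-09) and 2.49 ± 0.15 (SE; edgeR adjusted p = 2.64e-08). Vegfa, an angiogenic factor that hypoxia induces, was at 55.6 and 78 CPM in WT, and 23.8 and 82.8 CPM in NFATc1/ΔS and rose in both pairs, by 0.49 and 1.78 (edgeR adjusted p = 0.0438 and 2.01e-06).

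Signalling genes were split. Of 24 immediate early and anergy genes 11 were higher and 4 lower in NFATc1/ΔS (median 0.27), against 1 and 5 in WT (-0.18). Fosl2, an AP-1 factor, was at 179.7 and 206.1 CPM in WT, and 37.5 and 240.9 CPM in NFATc1/ΔS. Socs3, an inhibitor of cytokine receptor signalling, was at 169.2 and 85 CPM in WT, and 22.8 and 127.6 CPM in NFATc1/ΔS, and Cxcr4, the receptor for the stromal chemokine CXCL12, at 47.3 and 31.7 CPM in WT, and 5.4 and 32.7 CPM in NFATc1/ΔS. All 3 were lowest in the library labelled NFATc1/ΔS day 2.5. Of 20 naive and stem-like genes 11 were higher and 6 lower (0.45).

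Of 28 tested cytokine genes 10 were lower, against 24.2% of all genes, and 5 higher (median -0.25). Ifng went from 186.4 CPM at day 2.5 to 38.6 CPM at day 3.5, a log2 fold change of -2.29 ± 0.16 (SE; edgeR adjusted p = 1.30e-07), and Tbx21 had -0.83 ± 0.16 (SE; edgeR adjusted p = 0.00104). Il13, a Th2 cytokine, was at 13.9 and 16.8 CPM in WT, and 43.8 and 13.5 CPM in NFATc1/ΔS and fell (-1.71, edgeR adjusted p = 5.49e-07), and Il2, the T cell growth factor, was at 2 and 2.8 CPM in WT, and 8.2 and 3.1 CPM in NFATc1/ΔS (-1.44, edgeR adjusted p = 0.0171). Eomes, a T-box factor of cytotoxic cells, was at 3.3 and 7.7 CPM in WT, and 19.7 and 4 CPM in NFATc1/ΔS, so it rose in WT (1.22, edgeR adjusted p = 0.0178) and fell in NFATc1/ΔS (-2.33, edgeR adjusted p = 2.36e-05). Il2ra, the high-affinity IL-2 receptor chain, was at 1436.2 and 1199.2 CPM in WT, and 1441.8 and 1221.5 CPM in NFATc1/ΔS and passed in neither pair.

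**Figure D5:**
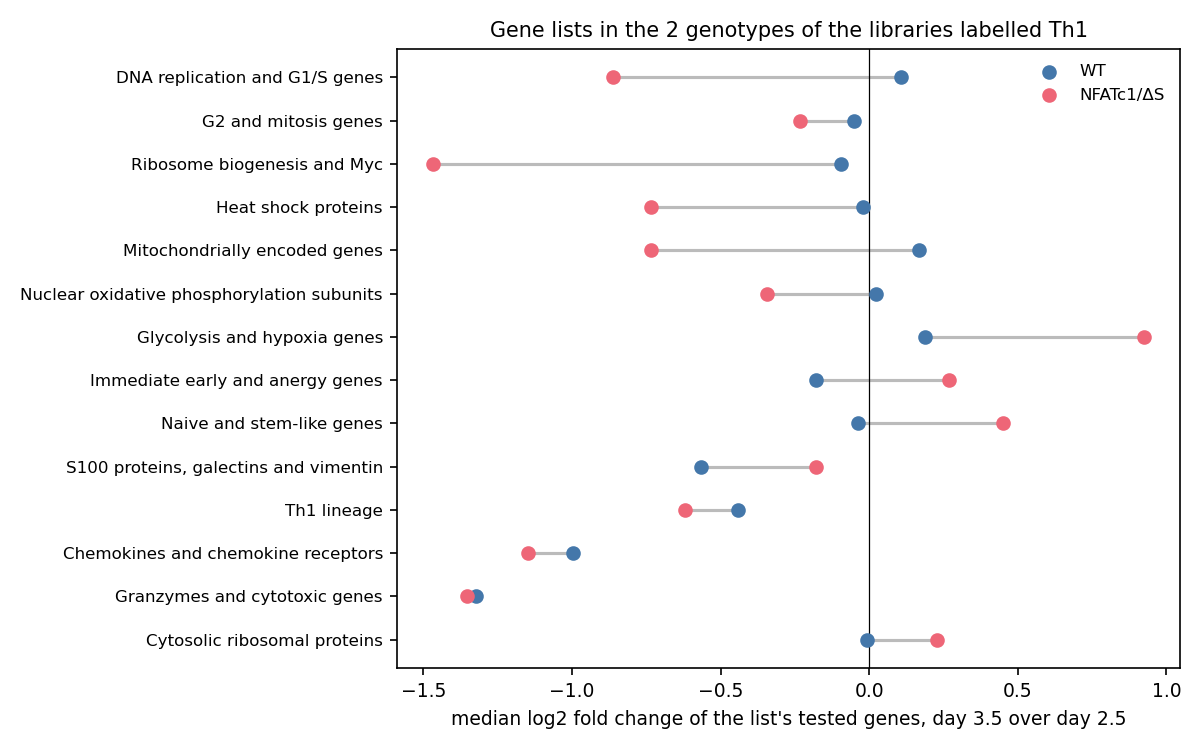
Median log2 fold change of the tested genes of 14 lists, day 3.5 over day 2.5, in the WT pair (blue) and the NFATc1/ΔS pair (red). The cytotoxic list lies at -1.32 and -1.35, whereas ribosome biogenesis lies at -0.10 and -1.47 and glycolysis and hypoxia at 0.19 and 0.93.

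The difference between the pairs, tested directly as NFATc1/ΔS minus WT, passed for 3455 of 13934 genes (24.8%), 1598 higher (11.5%) and 1857 lower (13.3%). Of the 5012 genes called in NFATc1/ΔS and not in WT, 2582 passed this test of the difference. In all, 1236 genes were called in both pairs, and 1015 of them moved the same way and 221 opposite ways. The 1236 are 68.4% of the WT calls, where 44.8% of all genes were called in NFATc1/ΔS. They are 19.8% of the NFATc1/ΔS calls, where 13% of all genes were called in WT. By list, 28 of 32 DNA replication genes, 25 of 30 ribosome biogenesis genes, 12 of 20 heat shock genes and 10 of 15 mitochondrially encoded genes had a lower day change in NFATc1/ΔS than in WT, where the lists' medians lay between -0.10 and 0.17. For the difference 16 of 33 glycolysis and hypoxia genes were higher and 1 lower. The cytotoxic list was split, with 5 higher and 4 lower, and Gzmb had a difference of 0.16 ± 0.20 (SE; edgeR adjusted p = 0.624).

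In some genes with a large difference the library labelled NFATc1/ΔS day 2.5 stood apart. Gipr, the receptor of the incretin GIP, was at 16.2 and 15.4 CPM in WT, and 0.2 and 34.3 CPM in NFATc1/ΔS, and at 16.9 to 39.4 CPM in Th2 and Th17. C3, the central complement protein, was at 50 and 32.5 CPM in WT, and 1.5 and 40.1 CPM in NFATc1/ΔS, and at 40.8 to 174.5 CPM elsewhere. Aldoc was at 248.2 to 410 CPM in the other 8 libraries, against 40 CPM here. Tbc1d4, a GTPase activator of glucose transporter traffic, was at 6.6 and 32.3 CPM in WT, and 45.6 and 17.8 CPM in NFATc1/ΔS, where both day 2.5 libraries stood off from day 3.5 in opposite directions. Of all 12 libraries, the one labelled NFATc1/ΔS day 2.5 was the highest or lowest for 84.7% of the 3455 genes. Each other library was so for 2.3 to 24.8%. The test that chose these genes uses the values of that library, so its share among them is partly set by the choice. Over all 13934 genes the share of that library was 49.1%, against 5.7 to 20.8% for the others. Since no culture was repeated, whether that library or the genotype gives the difference cannot be told apart.

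The same library held the extreme summed levels of the growth lists. The sum over 32 DNA replication genes was 4028 and 4356.4 CPM in WT and 7212.8 and 4124.1 CPM in NFATc1/ΔS, with 2411.7 to 4184.1 CPM in Th2 and Th17. Ribosome biogenesis came to 5242.8 and 5323.3 CPM in WT and 9989.9 and 5171 CPM in NFATc1/ΔS, with 5058.6 to 7250.6 CPM elsewhere. Glycolysis and hypoxia genes came to 34331 and 39907 CPM in WT and 24343 and 39006 CPM in NFATc1/ΔS, with 30118 to 54333 CPM elsewhere. For each of the 3 lists the library labelled NFATc1/ΔS day 2.5 was the highest or lowest of all 12.

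The day change of Th1 was set against that of the other cultures with the spread of all 12 libraries. It differed from Th2 for 913 of 13427 genes (6.8%), 508 higher (3.78%) and 405 lower (3.02%), and from Th17 for 1330 (9.91%), 693 higher (5.16%) and 637 lower (4.74%). The glycolysis and hypoxia list was higher for 13 of 33 genes and lower for none in both comparisons (medians 1.16 and 1.05). Of 16 cytotoxic genes 6 were lower against Th2 and 4 against Th17, and none was higher (medians -1.26 and -0.77). G2 and mitosis genes were lower for 20 of 30 against Th17 and for 2 against Th2. Hk2, the hexokinase that begins glycolysis in activated T cells, was at 187.3 and 272.9 CPM in WT, and 194.8 and 279 CPM in NFATc1/ΔS in Th1, at 328.5 and 213.1 CPM (WT) and 308.7 and 195.7 CPM (NFATc1/ΔS) in Th2 and at 351.2 and 249.8 CPM (WT) and 289.2 and 198.7 CPM (NFATc1/ΔS) in Th17. It was higher at day 3.5 in both Th1 pairs and lower in all 4 others, a difference of 1.16 ± 0.16 (SE; edgeR adjusted p = 0.0142) against Th2 and of 1.05 ± 0.16 (SE; edgeR adjusted p = 0.0172) against Th17. Gzmb was at 433.5 and 575 CPM (WT) and 265.6 and 282.3 CPM (NFATc1/ΔS) in Th2 and at 142.7 and 116.5 CPM (WT) and 150.8 and 105.3 CPM (NFATc1/ΔS) in Th17, with differences of -1.69 ± 0.20 (SE; edgeR adjusted p = 0.00916) and -1.01 ± 0.20 (SE; edgeR adjusted p = 0.0314). Th17 cells grew in another medium with less anti-CD3, so culture and medium cannot be told apart there.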

How the data were processed

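Per the file headers, the authors deposited for each library a table of 41457 Ensembl genes with whole-number counts of total, unique, exon and intron reads; GRCm38 comes from the submitters' processing notes, the sources used here do not name the aligner or counter. Total gene reads, which include reads that map elsewhere too, were fitted in R 4.3.3 by edgeR 4.0.16 (TMM, filterByExpr with a minimum count of 10 and total of 15, robust quasi-likelihood fits, Benjamini-Hochberg adjustment at 0.05). The test over both pairs used the 4 Th1 libraries with genotype as a block (1 residual degree of freedom). The tests within and between genotypes took the spread from Th2 and Th17 (2 degrees of freedom), so they assume that Th1 libraries vary as those do. The comparison with Th2 and Th17 used culture by genotype blocks over all 12 libraries (3 degrees of freedom). Standard errors come from the log2 fold change and its F statistic (size over root F). The reads carry no molecular identifiers.

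Near-identical genes were found with blastn 2.17.0 on GENCODE transcripts. The scripts were tested on simulated data. The rule for named genes took 28 T helper genes, per test the 10 largest called changes each way (5 against Th2 and Th17) with mean log2 CPM of at least 1 and a plain symbol, the 4 members of smallest p in each of 39 lists, and the 6 extremes each way of the label checks. Gzmc, Ly6a, Mki67, Rpl29, Vegfa and the partners of the copy pairs were chosen after their values were seen, and a few genes that the rule takes are left unnamed though every count includes them. The comparison, the libraries and the lists were chosen with earlier results of these data known. Alternatives were RLE factors, DESeq2 1.42.0, limma-voom 3.58.1, other filters, unique or exon reads, no robust fit, a minimum log2 fold change of 0.5, no blocks, and libraries or pairs left out.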

Additional observations from a re-analysis of the deposited data

Results flagged for a closer look

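The day change differed between the genotypes of Th1 by a direct test for 3455 genes, and from that of Th2 for 913 and of Th17 for 1330 genes (edgeR's quasi-likelihood test). All values below are differences of log2 fold changes, day 3.5 over day 2.5, that passed that test.

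Higher in NFATc1/ΔS than in WT were Gipr (7.45), Serpinb5 (7.23), Stac2 (6.99), Dntt (6.38), Stc1 (6.21), Myh7b (6.00), C3 (5.33), Kctd11 (5.27) and Fam183b (5.25). Lower were Amd2 (-4.80), Olfr56 (-4.62), Rn7sk (-4.14), Nefh (-4.14), Serpina3f (-3.91), Camk2b (-3.72), Tbc1d4 (-3.67), Eomes (-3.54), Mical2 (-3.37) and Stra6 (-3.35). Gipr, Serpinb5, Stac2, Dntt, Stc1, Myh7b, Fam183b, Olfr56, Serpina3f, Camk2b and Mical2 were under 1 CPM in a Th1 library, so their values are no measure of a fold. Under 50% of the reads of Amd2 and Rn7sk were unique, and over 50% of those of Olfr56 and Camk2b lay in introns. Dntt, the polymerase that adds bases to antigen receptor junctions, was at 33.9 and 6.7 CPM in WT and at 0.7 and 12.1 CPM in NFATc1/ΔS. The library labelled NFATc1/ΔS day 2.5 was the highest or lowest of all 12 for 84.7% of the 3455 genes, whose test uses its values, and for 49.1% of all 13934 genes. Its part and that of the genotype cannot be told apart.

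Against Th2, the Th1 change was higher for Pde6a (11.61), Gbp2b (10.90), Cfap77 (10.14), Wdr66 (9.35) and Eno1b (8.92) and lower for Rab6b (-5.86), Lamb3 (-5.42), Kpna2 (-5.39), Coro2a (-4.73) and Gvin1 (-4.65). Against Th17 it was higher for Pde6a (11.27), Cfap77 (8.52), Adarb2 (8.31), H2-Q1 (8.26) and Wdr66 (8.11) and lower for Rab6b (-5.94), Lamb3 (-5.77), Kpna2 (-5.56), Coro2a (-4.99) and Ly6c1 (-4.84). The fitted values of Pde6a, Gbp2b, Wdr66, Adarb2, H2-Q1, Rab6b and Lamb3 rest on Th1 libraries under 1 CPM and are no measure of a fold. Pde6a, Cfap77, Wdr66, Adarb2 and Lamb3 have mostly intron reads, and Kpna2, Coro2a, Eno1b, Gvin1, Wdr66, Adarb2 and Lamb3 have under 50% unique reads.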

How the results depend on the processing

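Over both pairs, 261 genes passed with genotype as a replicate block and 149 with no replicate block, all of them among the 261. Other counts there were 763 with all 12 libraries, 774 with no read filter, 113 with exon reads and, as an alternative chosen after seeing the data, 62 without genes of mostly shared or intron reads. Leaving out 1 library at a time, which needs the block dropped, gave 97 to 7361 calls: 97 and 118 without NFATc1/ΔS day 3.5 and WT day 3.5, 2643 and 7361 without NFATc1/ΔS day 2.5 and WT day 2.5. Taking the WT pair alone gave 1806 and the NFATc1/ΔS pair alone 6248. A minimum log2 fold change of 0.5 gave 769 in WT, 2978 in NFATc1/ΔS, 1469 for their difference, 345 against Th2 and 396 against Th17, and DESeq2 gave 583, 2723 and 1109 for the first 3. Against Th2, 1744 passed with no replicate block, 2980 without the NFATc1/ΔS pair and 6377 without the WT pair, and against Th17 2356, 3460 and 6707. Directions that turned were Eomes (1.22) and Il12rb2 (-0.39) over both pairs without the NFATc1/ΔS pair, Camk2b between genotypes with exon reads (0.15) and Eomes against Th17 without the WT pair (-1.56). The causes were not tested. No other named value that passed its test turned under an alternative that was run. With 1 library per group, depth limits genes near 1 CPM most.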
